A study of Mus musculus with 5 samples.

Results

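The genes of the mitochondrial protein import machinery were compared between Polg mutant and wild-type (WT) erythroid cells of mouse bone marrow. Members were chosen by gene symbol: every symbol beginning with Tomm or Timm and a digit, together with Pam16, Dnajc15, Dnajc19, Pmpca, Pmpcb, Samm50, Mtx1, Mtx2, Chchd4 and Gfer. Of the 22180 genes with a probe set of their own, 32 fitted this choice. Tomm5, Tomm6 and Dnajc19 shared each of their probe sets with another symbol and were not analysed here. By place of action, 10 members belong to the outer membrane, 10 to the inner membrane, 7 are small Tim chaperones, 2 form the disulfide relay, 2 form the processing peptidase, and Tomm34 acts in the cytosol.

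There were 3 Polg mutant arrays, from mice labelled Polgtm1Lrsn mt/mt, and 2 WT arrays, from mice labelled Polgtm1Lrsn wt/wt, all on a C57BL/6 background. The allele is a knock-in that removes proofreading by the mitochondrial DNA polymerase, so that mutations build up in mitochondrial DNA. Every mouse came from the same type of cross, in which both parents were Atg7 flox/flox and PolG wt/mt and the sire also carried Epo-cre ki/wt. The sources used here give neither the ages nor which mice inherited Epo-cre. The design text describes the mice as phlebotomized, which means that blood was drawn from them, while the treatment field of the labels reads none. Cells were depleted of CD45, a leukocyte antigen, and then selected on magnetic beads for Ter119, an erythroid surface antigen. One-colour Affymetrix arrays were read from total RNA of these cells.

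Most mitochondrial proteins are made in the cytosol and pass through the outer membrane by the TOM complex. Precursors with a cleavable presequence then cross the inner membrane by the TIM23 complex and its ATP-driven motor, while solute carriers are escorted by small Tim chaperones to the TIM22 complex. The SAM complex inserts beta-barrel proteins, the Chchd4 and Gfer relay folds cysteine-rich proteins of the intermembrane space, and the Pmpca and Pmpcb peptidase removes presequences in the matrix. Erythroblasts import the enzymes of heme synthesis in this way, and lose their mitochondria as reticulocytes mature.

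Levels are log2 expression values of the deposited table, and differences are log2 Polg mutant minus log2 WT each with its standard error (SE) from limma. Array medians were at most 5.13 and lower quartiles between 3.95 and 4.02 over all probe sets. Signal over background was not known, so levels near the median were not shown to be above it. In 22 of the 32 members at least 1 value recurred exactly on another array, as in 67.9% of all genes, so the spread within a group may be understated. The number of arrays limits the precision. No label states that each array is a different animal, and p-values then cover only array-to-array spread, part of which may be technical. With 5 arrays an exact permutation test of a single gene could not give less than p = 0.1.

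Selected cells carried erythroid transcripts at high levels. The mean of 18 measured erythroid markers, of 20 listed, was 11.41, 11.49 and 11.43 on the Polg mutant arrays. On the WT arrays it was 11.86 and 11.69. Of the 18, 17 were below both WT values on every Polg mutant array, against 9.73% of all genes tested. The median difference of the 18 was -0.34. The band 3 gene Slc4a1 averaged 13.39 ± 0.02 (SD, n = 3) in Polg mutant and 13.52 ± 0.09 (SD, n = 2) in WT cells. Ptprc, which encodes CD45, ranged from 6.06 to 7.67 in Polg mutant and from 6.43 to 7.13 in WT cells. The mean of 20 neutrophil markers was 8.13, 8.59 and 7.03 on the Polg mutant arrays, against 7.81 and 6.92 on the WT arrays. Of the 20, 0 separated the genotypes, against 8.36% of all genes as higher and 9.73% as lower. Gene levels of the 20 ran from 5.11 to 11.23. In these bulk samples, fewer cells of a type and less RNA per cell cannot be told apart, and the part of either marker list in the differences below was not tested. The probe set of Polg read 6.97 on all 5 arrays. It measures total Polg RNA and does not test for the mutant allele.

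In the Polg mutant cells, import genes were more often higher than lower. The 9 with an unadjusted limma p under 0.05 were the TOM genes Tomm20, Tomm70a and Tomm40, the TIM23 and motor genes Timm50, Timm23, Timm44 and Pam16, and the relay genes Chchd4 and Gfer, by 1.10-fold to 1.57-fold. No member passed the threshold of an adjusted p under 0.05 with limma, which 0 of all 22180 genes passed (0% called). Without WT replicate 1, 3.21% of all genes passed as higher and 4.82% as lower, with Timm21 the single import gene among them, and without WT replicate 2 2.3% and 1.86% did, with Timm8a1 the single import gene. Among genes above a log2 of 6, 0.0719% passed as higher and 0.06% as lower, with 0 of the 26 import genes tested there. Among genes with 5 distinct values 1.03% and 0.576% passed, with 0 of the 10 import genes tested there. For 14 of the 32 members all Polg mutant values exceeded both WT values, against 8.36% of all genes tested, and for 2 all Polg mutant values were under both, against 9.73%. At an unadjusted limma p under 0.05 the 9 higher members compare with 4.18% of all genes, and there was 1 lower member, Tomm20l, against 5.33%. The median difference over the 32 members was 0.13, from -0.34 to 0.65, and over all genes it was 0.0.

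**Figure D1:**
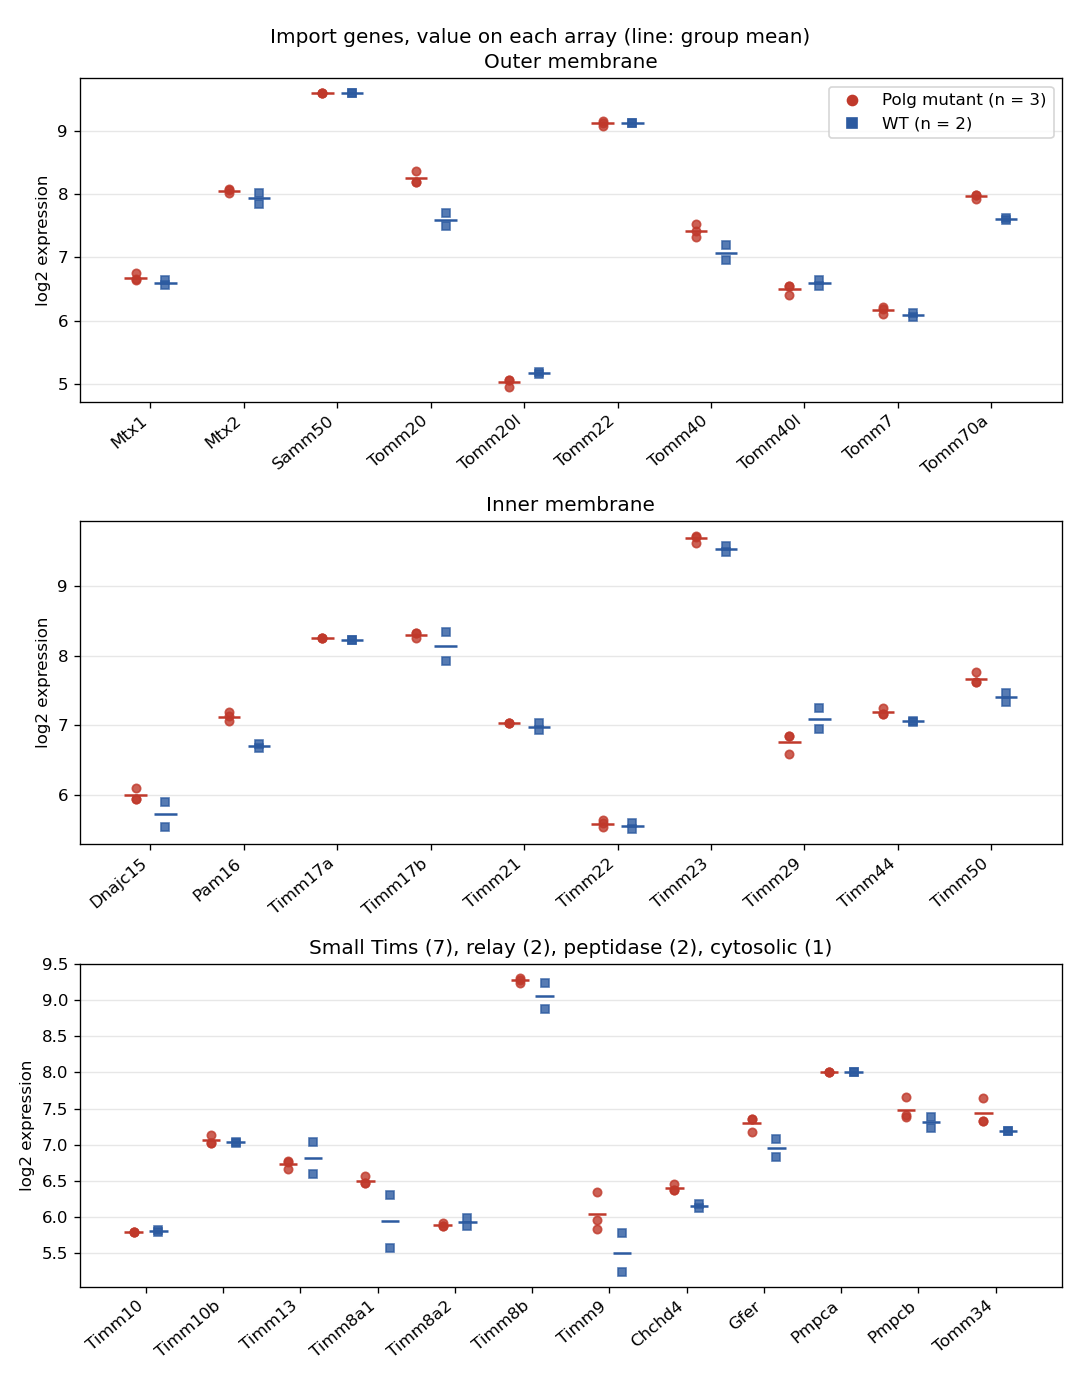
Log2 expression of the 32 import genes on each array, with red circles for the 3 Polg mutant arrays, blue squares for the 2 WT arrays and a line at each group mean. Tomm20, Tomm70a and Pam16 show a gap between the groups, whereas Samm50 and Pmpca have the same value on all arrays.

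Promoter sequences of the 4 members with the smallest p (Tomm70a, Pam16, Tomm20 and Chchd4) are shown because these genes were higher together. The sequences are from RefSeq on build GRCm38.p6 and run 5′ to 3′ on the gene's strand, from 250 bases before the annotated start to 50 after it. The Tomm20 promoter lies at chr8:126945872-126946171 on the minus strand, that of Pam16 at chr16:4624897-4625196 on the minus strand, that of Chchd4 at chr6:91473374-91473673 on the minus strand, and that of Tomm70a at chr16:57121464-57121763 on the plus strand. Capitals mark matches to the motif of NRF1, a regulator of nuclear genes for mitochondria (GCGCA, then any base, then GCGC, on either strand), and to CCGGAAG, a core bound by GABP and other ETS factors, on either strand.
Tomm20: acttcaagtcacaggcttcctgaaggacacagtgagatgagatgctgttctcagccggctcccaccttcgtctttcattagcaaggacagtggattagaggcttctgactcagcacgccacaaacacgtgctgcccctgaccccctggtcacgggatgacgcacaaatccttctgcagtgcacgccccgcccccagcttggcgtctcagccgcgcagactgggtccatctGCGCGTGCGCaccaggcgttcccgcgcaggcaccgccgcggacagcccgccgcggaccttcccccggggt
Pam16: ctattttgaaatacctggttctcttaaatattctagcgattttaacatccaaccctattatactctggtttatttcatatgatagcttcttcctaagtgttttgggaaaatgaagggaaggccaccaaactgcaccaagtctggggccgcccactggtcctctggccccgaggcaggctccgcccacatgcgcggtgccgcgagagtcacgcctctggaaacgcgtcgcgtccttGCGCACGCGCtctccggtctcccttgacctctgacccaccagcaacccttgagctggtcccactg
Chchd4: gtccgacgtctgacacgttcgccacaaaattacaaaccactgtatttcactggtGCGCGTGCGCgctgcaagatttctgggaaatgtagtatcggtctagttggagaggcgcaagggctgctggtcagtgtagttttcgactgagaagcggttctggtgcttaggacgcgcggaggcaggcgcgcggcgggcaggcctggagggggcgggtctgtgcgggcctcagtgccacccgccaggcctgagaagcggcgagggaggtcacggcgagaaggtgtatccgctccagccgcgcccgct
Tomm70a: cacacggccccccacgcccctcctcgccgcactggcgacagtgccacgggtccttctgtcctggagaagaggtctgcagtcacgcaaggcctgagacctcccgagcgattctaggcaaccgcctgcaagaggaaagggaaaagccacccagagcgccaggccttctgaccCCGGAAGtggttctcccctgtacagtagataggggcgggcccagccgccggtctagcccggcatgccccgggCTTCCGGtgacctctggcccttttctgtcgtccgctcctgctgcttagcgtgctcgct

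Counting the annotated start as 0, the NRF1 match lay at -20 to -11 in the Tomm20 promoter, at -15 to -6 in that of Pam16 and at -196 to -187 in that of Chchd4. The Tomm70a promoter held 2 matches to CCGGAAG, at -80 to -74 and at -8 to -2. No match overlapped another. Promoters were listed for 29 of the 32 members, 31 promoters in all. Of these 31, 4 held the NRF1 motif (in Timm8b besides the 3 genes printed), against 4.6% of all 32851 promoters. CCGGAAG was found in 14 of the 31 member promoters, against 8.86% of all promoters. These 14 promoters belong to 13 genes. Of the 13 genes, 3 (Tomm70a, Timm23 and Tomm34) were among the 14 genes that were higher on every Polg mutant array. The composite element of ATF4, a stress-response factor (TGATGNAA, on either strand), was found in 0 of the 31 member promoters and in 3.97% of all promoters. These matches describe the letters in the window, and whether any factor binds them was not tested.

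Among the receptors of the TOM complex, Tomm20, which binds presequences, had the largest difference of any member. It read 8.20, 8.36 and 8.19 in Polg mutant cells, against 7.49 and 7.70 in WT cells. The groups lay well apart, with a difference of 0.65 ± 0.09 (SE, limma adjusted p = 0.238). Tomm70a, the receptor for carrier precursors, read 7.99, 7.93 and 7.98 in Polg mutant cells, against 7.59 and 7.63 in WT cells. Its groups were narrow and did not overlap, with a difference of 0.36 ± 0.03 (SE), and its limma adjusted p of 0.193 was the smallest of the members. Tomm22, the central receptor, read 9.12, 9.16 and 9.08 in Polg mutant cells, against 9.12 on both WT arrays, a difference of -0.004 ± 0.030 (SE) whose sign depended on the scaling (0.0542 after renewed quantile normalization).

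Tomm40, the pore of the TOM complex, read 7.53, 7.32 and 7.42 in Polg mutant cells, against 6.96 and 7.19 in WT cells. The groups did not overlap, and the difference was 0.35 ± 0.11 (SE, limma adjusted p = 0.457). Without WT replicate 1 the Tomm40 difference was 0.23. The paralogues of these subunits did not share this direction: Tomm20l differed by -0.15 ± 0.05 (SE, limma adjusted p = 0.477) and Tomm40l by -0.09 ± 0.06. Tomm20l read 4.95, 5.06 and 5.06 in Polg mutant cells, against 5.16 and 5.18 in WT cells, near the array medians. Tomm7, a small subunit that affects assembly of the complex, differed by 0.08 ± 0.05 with overlapping groups.

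Differences in the SAM complex were small. Samm50, its beta-barrel insertase, read 9.60 on all 5 arrays. The metaxin genes Mtx1 and Mtx2, whose products partner Samm50, differed by 0.08 ± 0.05 and 0.12 ± 0.06 (SE), and in both the lowest Polg mutant array was level with WT replicate 2. The Mtx2 difference was 0.0343 without WT replicate 1 and 0.21 without WT replicate 2. Over the 10 outer membrane genes, 3 were higher and 1 lower on every Polg mutant array, against 8.36% and 9.73% of all genes. At an unadjusted limma p under 0.05, 3 were higher and 1 lower, against 4.18% and 5.33% of all genes. The median difference of the outer membrane genes was 0.08. Without WT replicate 1 this median was 0.0361.

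**Figure D2:**
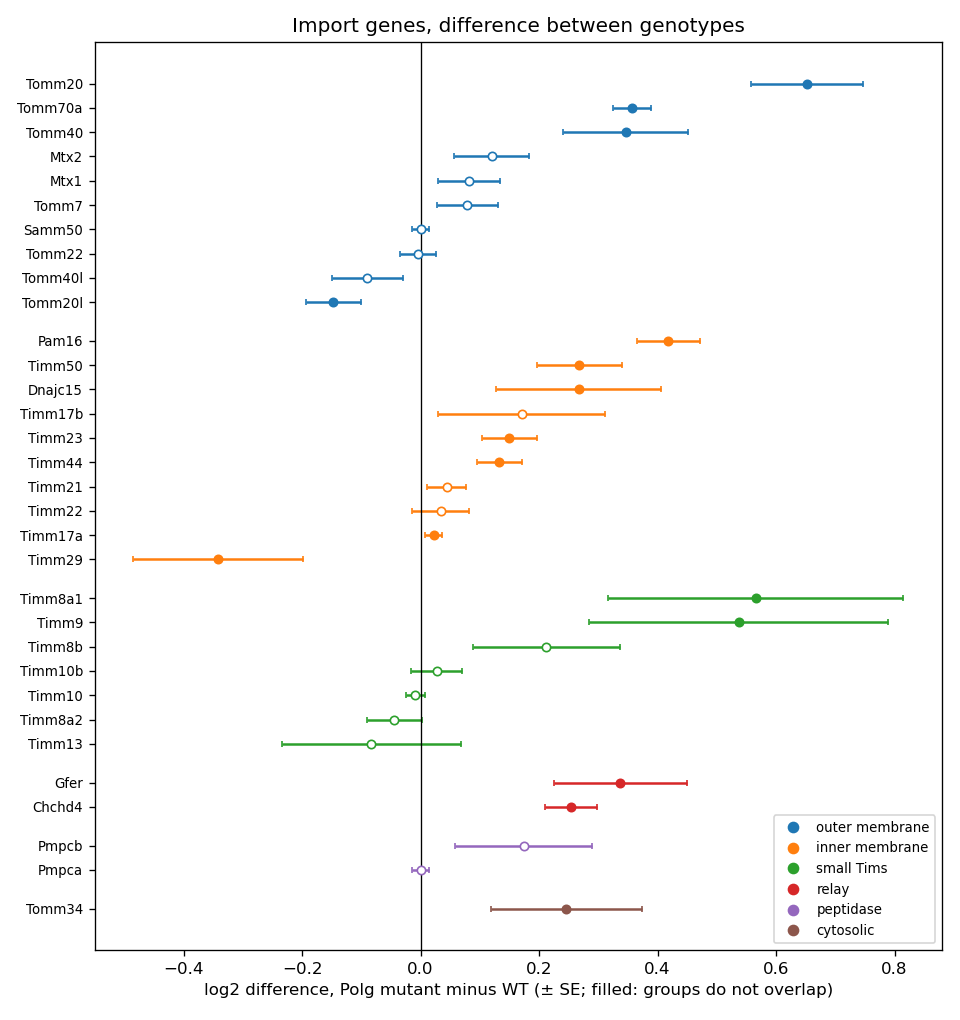
Log2 difference, Polg mutant minus WT, of each import gene with the SE of limma's test, grouped by place of action; filled symbols mark genes whose groups do not overlap. The inner membrane group has 6 filled symbols above 0, of 10, and the small Tims have 2, of 7, against 8.36% of all genes tested.

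At the inner membrane, 8 of the 10 members belong to the TIM23 complex or its motor. Timm50, the receptor of the TIM23 complex, read 7.62, 7.77 and 7.62 in Polg mutant cells, against 7.34 and 7.47 in WT cells, a difference of 0.27 ± 0.07 (SE, limma adjusted p = 0.392). Timm23, the channel, read 9.72, 9.70 and 9.62 in Polg mutant cells, against 9.49 and 9.57 in WT cells. Both genes were higher on every Polg mutant array, and for Timm23 the difference was 0.15 ± 0.05 (SE, limma adjusted p = 0.472). Timm17a and Timm17b, alternative partners of Timm23, differed by 0.02 ± 0.02, without overlap, and by 0.17 ± 0.14, with overlap. For Timm17b the WT arrays were 7.93 and 8.34, and its difference was -0.0337 without WT replicate 1. Timm21, which contacts the TOM complex, held a single value, 7.03, on all Polg mutant arrays and WT replicate 1, and read 6.94 on WT replicate 2. Its difference was 0.0443, or 0.0886 without WT replicate 1 and -0.0039 after renewed quantile normalization. With a single WT array left, Timm21 had no spread of its own.

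The import motor drives precursors into the matrix by cycles of the chaperone Hspa9. Pam16, which regulates the J-protein partner of that chaperone, read 7.19, 7.13 and 7.06 in Polg mutant cells, against 6.74 and 6.68 in WT cells. All Polg mutant values were above both WT values, with a difference of 0.42 ± 0.05 (SE, limma adjusted p = 0.222). Timm44, the motor's scaffold at the channel, read 7.25, 7.16 and 7.16 in Polg mutant cells, against 7.07 and 7.05 in WT cells. Its difference was small, 0.13 ± 0.04 (SE), without overlap (limma adjusted p = 0.419), and was 0.0836 after renewed quantile normalization. Dnajc15, a J protein of the motor, differed by 0.27 ± 0.14 (SE), with no overlap, and by 0.09 without WT replicate 2 and 0.45 without WT replicate 1.

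The inner membrane also holds 2 genes of the TIM22 complex. Timm22, the carrier insertase, differed by 0.03 ± 0.05 (SE) with overlapping groups. Timm29, a subunit of the TIM22 complex known from human cells, was lower: it read 6.59, 6.85 and 6.85 in Polg mutant cells, against 7.25 and 6.95 in WT cells. The groups did not overlap and the difference was -0.34 ± 0.14 (SE, limma adjusted p = 0.638), or -0.19 without WT replicate 1. Over the 10 inner membrane genes, 6 were higher and 1 lower on every Polg mutant array, against 8.36% and 9.73% of all genes. At an unadjusted limma p under 0.05, 4 were higher and 0 lower, against 4.18% and 5.33% of all genes. The median difference of the inner membrane genes was 0.14.

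Small Tim chaperones were mixed. Timm9, which pairs with Timm10 to escort carriers, read 6.34, 5.96 and 5.84 in Polg mutant cells, against 5.24 and 5.78 in WT cells. Timm8a1, the orthologue of the human deafness-dystonia gene, read 6.47, 6.47 and 6.57 in Polg mutant cells, against 5.57 and 6.31 in WT cells. In both genes WT replicate 1 was the lowest array by far, and WT replicate 2 lay just under the Polg mutant values. The differences were 0.54 ± 0.25 for Timm9 and 0.57 ± 0.25 for Timm8a1 (SE, limma adjusted p = 0.638 each). Without WT replicate 1 they were 0.27 and 0.20, and without WT replicate 2 they were 0.80 and 0.93, the last with a limma adjusted p of 0.0418 (0.0418 to 0.700 over all alternatives for Timm8a1). The other probe sets of Timm8a1 read 6.22, 5.71 and 5.71 in Polg mutant against 5.60 and 5.71 in WT cells, and 5.75, 4.56 and 4.83 in Polg mutant against 4.19 and 4.83 in WT cells, so the groups overlapped in both.

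In the remaining small Tims the genotypes overlapped. Timm8b differed by 0.21 ± 0.12 (SE) and its partner Timm13 by -0.08 ± 0.15. For Timm8b the WT arrays read 8.87 and 9.24, and for Timm13 6.60 and 7.04. The Timm8b difference was 0.0318 without WT replicate 1 and 0.39 without WT replicate 2. Timm10, Timm10b and Timm8a2 differed by -0.01 ± 0.02, 0.03 ± 0.04 and -0.04 ± 0.05. Over the 7 genes, 2 were higher and 0 lower on every Polg mutant array, against 8.36% and 9.73% of all genes. Limma gave 0 at an unadjusted p under 0.05, against 4.18% of all genes as higher and 5.33% as lower. The median difference of the 7 was 0.03, and it was -0.0194 after renewed quantile normalization. Whether outer, inner and small Tim genes differ from one another in their response was not tested.

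Both genes of the disulfide relay were higher. Chchd4, the oxidoreductase that traps cysteine-rich precursors, read 6.46, 6.37 and 6.37 in Polg mutant cells, against 6.12 and 6.18 in WT cells. The groups did not overlap, and the difference was 0.25 ± 0.04 (SE, limma adjusted p = 0.264). Gfer, the sulfhydryl oxidase that reoxidises Chchd4, read 7.35, 7.17 and 7.36 in Polg mutant cells, against 7.08 and 6.83 in WT cells. Its lowest Polg mutant array was close to the higher WT array, and the difference was 0.34 ± 0.11 (SE, limma adjusted p = 0.495), or 0.21 without WT replicate 2.

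The processing peptidase and the cytosolic factor were less clear. Pmpca, the substrate-binding subunit, read 8.01 on all 5 arrays, and the catalytic subunit Pmpcb differed by 0.17 ± 0.12 (SE) with overlapping groups. The Pmpcb difference was 0.0959 without WT replicate 1 and 0.0863 without Polg mutant replicate 3. Tomm34, a cytosolic co-chaperone of precursors, read 7.65, 7.33 and 7.33 in Polg mutant cells, against 7.19 on both WT arrays. Polg mutant replicate 1 stood above the others, and the Tomm34 difference was 0.25 ± 0.13 (SE) with all arrays and 0.14 without that one.

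**Figure D3:**
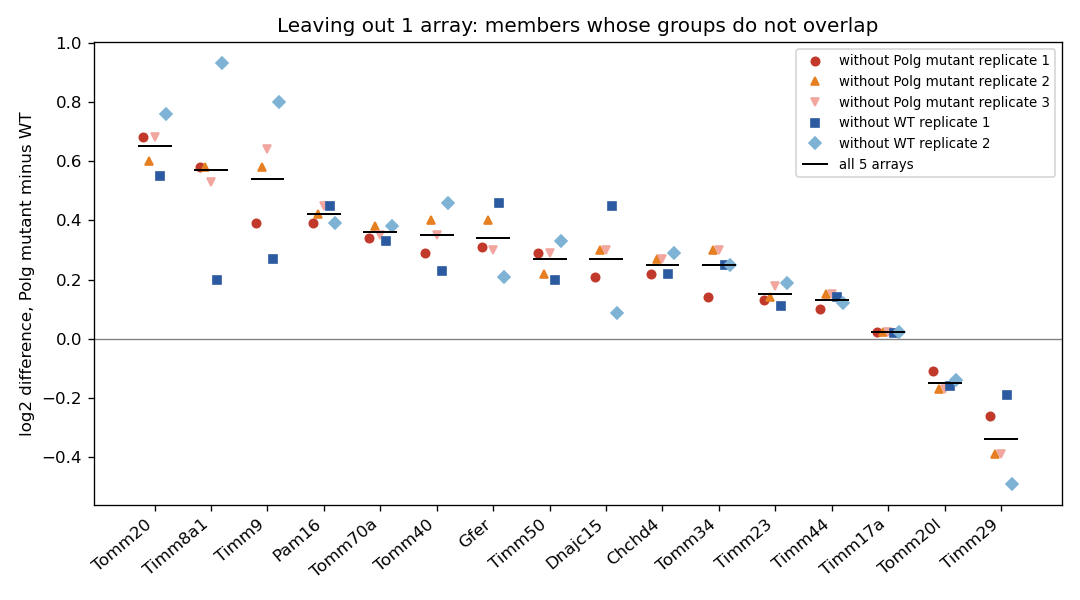
Log2 difference, Polg mutant minus WT, of the 16 members whose groups do not overlap, in fits that each left out 1 array (symbols) and with all 5 arrays (black line). Pam16 and Tomm70a stay within 0.39 to 0.45 and 0.33 to 0.38, whereas Timm8a1 spans 0.20 to 0.93.

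Other genes of the pathway, taken from a list of 32 of which 29 were measured, were led by matrix chaperones. For 8 of the 29 all Polg mutant values exceeded both WT values, against 8.36% of all genes tested, and for 2 (Xpnpep3 and Dnajc11) below both, against 9.73%. At an unadjusted limma p under 0.05, 7 were higher, against 4.18% of all genes, and 0 lower, against 5.33%. At a limma adjusted p under 0.05, 0 of the 29 passed, and 0 of all genes tested. Their median difference was 0.07.

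Hspa9, the motor chaperone itself, read 10.28, 10.08 and 10.31 in Polg mutant cells, against 9.08 and 9.16 in WT cells. That was 2.15-fold, a difference of 1.11 ± 0.09 (SE, limma adjusted p = 0.186), larger than that of any import gene chosen by symbol. Of its nucleotide exchange factors, Grpel1 was at -0.05 ± 0.13 (SE) and Grpel2 at 0.01 ± 0.05, with overlapping groups. Dnlz, known from human cells to keep Hspa9 soluble, differed by 0.29 ± 0.16, and both the lowest Polg mutant array and WT replicate 2 rounded to 7.43. The Dnlz difference was 0.0932 without WT replicate 1 and 0.48 without WT replicate 2.

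Of the folding factors, Hspd1, the matrix chaperonin that folds newly imported proteins, read 9.07, 9.01 and 9.0 in Polg mutant cells, against 8.39 and 8.36 in WT cells. The difference of 0.65 ± 0.03 (SE) had a limma adjusted p of 0.106 with all arrays, 0.0268 without WT replicate 1 and 0.0453 without WT replicate 2 (0.0268 to 0.488 over all alternatives). Dnaja3, a matrix J protein, differed by 0.61 ± 0.11 without overlap (limma adjusted p = 0.269), and by 0.24 with the mean of its probe sets in place of the brightest (adjusted p = 0.426 with limma). The co-chaperonin Hspe1 and the chaperone Trap1 differed by 0.43 ± 0.30 and 0.31 ± 0.18, with overlapping groups. Without WT replicate 1 these were 0.0591 for Hspe1 and 0.54 for Trap1, and without WT replicate 2 they were 0.80 and 0.0703.

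Higher genes outside folding were scattered. Pitrm1, which degrades cleaved presequences, differed by 0.41 ± 0.11 (SE, limma adjusted p = 0.393) and Bcs1l, which inserts the Rieske protein of complex III, by 0.12 ± 0.04 (adjusted p = 0.479), or by 0.0698 after renewed quantile normalization. Cox17, a copper chaperone folded by the Chchd4 relay, differed by 0.47 ± 0.14 (limma adjusted p = 0.448), and Micos13, a subunit of the cristae junction complex, by 0.59 ± 0.19 (adjusted p = 0.477), or 0.36 without WT replicate 1. Xpnpep3, a mitochondrial aminopeptidase, differed by -0.10 ± 0.06 and Dnajc11, which associates with the SAM complex, by -0.18 ± 0.09, both with every Polg mutant array below both WT arrays. With WT replicate 1 left out Xpnpep3 differed by -0.19 and Dnajc11 by -0.0573. With WT replicate 2 left out the differences were -0.00957 and -0.29.

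**Figure D4:**
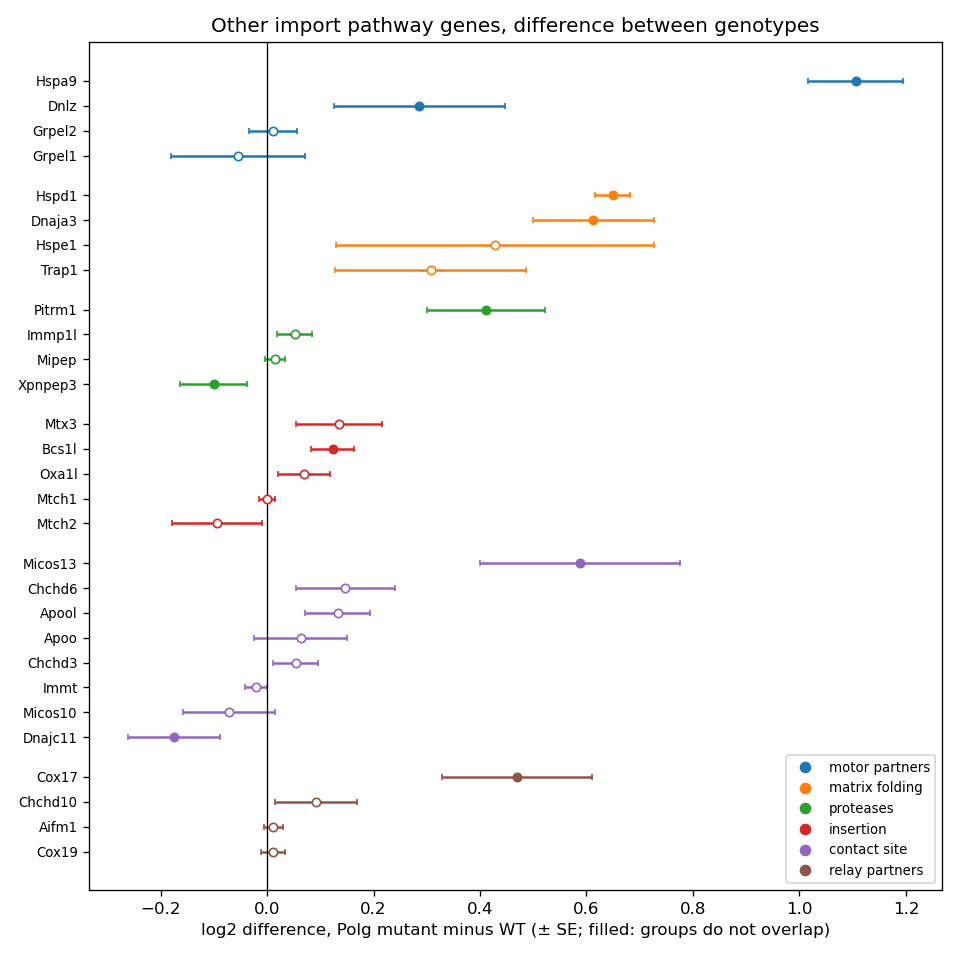
Log2 difference, Polg mutant minus WT, with the SE of limma's test, for the 29 measured genes of the pathway that lie outside the choice by symbol; filled symbols mark genes whose groups do not overlap. Hspa9 is farthest to the right at 1.11, followed by Hspd1, Dnaja3 and Micos13.

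The erythroid marker mean was lower on every Polg mutant array than on both WT arrays, while Tomm20, Pam16, Tomm70a and Chchd4 were higher. The neutrophil mean varied within both genotypes and was lowest on Polg mutant replicate 3 (7.03) and WT replicate 2 (6.92). On these arrays Tomm20 read 8.19 in Polg mutant and 7.70 in WT cells, and Pam16 7.06 in Polg mutant and 6.68 in WT cells. Tomm70a read 7.98 in Polg mutant and 7.63 in WT cells, and Chchd4 6.37 in Polg mutant and 6.18 in WT cells. These 4 genes are shown because they had the smallest p, so their separation by genotype is a description. Their groups do not overlap, so any Polg mutant array reads above any WT array, whichever arrays are picked. The part of neutrophil content in these genes was not tested.

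**Figure D5:**
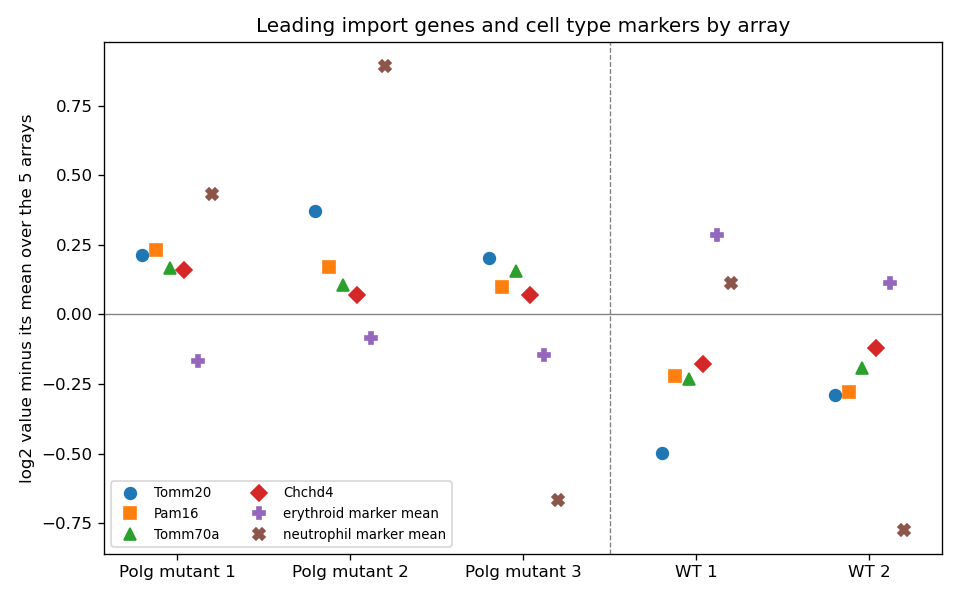
Log2 values on each array, minus the mean over the 5 arrays, of Tomm20, Pam16, Tomm70a and Chchd4 and of the mean of the erythroid and neutrophil markers. The 4 genes are above 0 on the 3 Polg mutant arrays and below 0 on the 2 WT arrays, the erythroid mean is the reverse, and the neutrophil mean is low on Polg mutant replicate 3 and WT replicate 2.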

How the data were processed

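Values came from 1 deposited table, which gives log2 expression per array for 41345 probe sets. Per the submitters' processing notes the tools were RMA and Partek 6.5; what each did is not recorded there, and no genome build was named. These log2 values were analysed as the authors deposited them. Platform annotation gave 1 symbol to 23521 probe sets, several to 1814 and none to 16010, and 23328 of the first matched RefSeq by gene ID. The brightest single-symbol probe set stood for each gene.

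All 22180 genes were fitted with limma 3.58.1 in R 4.3.3, with genotype as the term, empirical Bayes moderation without a trend, two-sided tests and Benjamini-Hochberg adjustment across all genes. The code was tested on simulated data drawn without exact ties, unlike the deposited values. Exact ties between arrays occurred in 67.9% of genes and in 22 of the 32 members, and 2 members had a single value. limma's prior SD was 0.0376 over all genes and 0.17 over genes with 5 distinct values.

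The members and gene lists were chosen with earlier results of these data known. Full values were given for members with an unadjusted p under 0.05, or with groups that do not overlap and a difference of at least 0.3, and the other members are described with their complexes. Other members given by array, and the 4 genes whose promoters are printed, were picked after their values were seen. The groups share replicate numbers 1 and 2, but the labels do not say that these pair the arrays. Alternatives covered dim and tied genes, variance moderation, scaling, probe sets, the replicate number as a block and leaving out each array. Markers of further cell types were also read. Their means ranged from 5.34 to 5.52 in Polg mutant cells against 5.39 on both WT arrays for 12 macrophage genes, 4.98 to 5.41 against 5.32 to 5.77 for 9 B-cell genes, 5.17 to 5.24 against 5.04 to 5.29 for 8 T- and NK-cell genes, and 6.07 to 6.41 against 6.25 to 7.02 for 7 megakaryocyte genes.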

Additional observations from a re-analysis of the deposited data

How the results depend on the processing

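The differences of 46 single genes gave 564 values under the alternatives, of which 15 had the opposite sign. Samm50 and Pmpca, with a single value on all arrays, had no direction, and Samm50 was at 0.0405 after quantile normalization and -0.00528 after median centring. The number of import genes with an adjusted p under 0.05 was 0 in all alternatives except without WT replicate 1 (1 gene, Timm21, at 0.0886 with a limma adjusted p of 0.0304, 0.0304 to 1.0 over all alternatives) and without WT replicate 2 (1 gene, Timm8a1). Leaving out arrays in turn gave 0 to 1. Where 1 WT array was left, its variance was taken to equal that of the Polg mutant arrays. Import genes higher at an unadjusted p under 0.05 numbered 4 among genes with 5 distinct values, where 10 of the 32 could be tested, 5 with the replicate block, and 6 to 11 when 1 array was left out. Lower ones numbered 0 among genes above a log2 of 6, among genes with 5 distinct values, without variance moderation and with the replicate block. They numbered 0 to 1 when 1 Polg mutant array was left out. Tomm20l, the lower member with all genes, was not tested in the fits to genes above a log2 of 6 or with 5 distinct values. Import genes below all remaining WT arrays on every remaining Polg mutant array numbered 2 to 5 when 1 array was left out, and those above 14 to 21. Groups separate more easily when fewer arrays are left. The shares of all genes were not counted in these fits, nor for the unadjusted p counts of the alternatives, so these counts have no background beside them. The median difference of outer membrane genes was 0.35 among genes with 5 distinct values, 0.0474 after quantile normalization and 0.0361 to 0.0863 without 1 array. That of inner membrane genes was 0.28 among genes with 5 distinct values and 0.0992 to 0.16 without 1 array. That of small Tim genes was 0.12 among genes above a log2 of 6, 0.21 among genes with 5 distinct values, -0.0194 after quantile normalization, -0.00852 with the mean of probe sets and -0.00788 to 0.13 without 1 array, the lowest without Polg mutant replicate 2. The cause of these shifts was not tested, other than that fewer genes enter the first 2.

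Signs of small differences turned as follows. Quantile normalization gave -0.0039 for Timm21, 0.0542 for Tomm22, -0.0194 for Timm10b and -0.0346 for Grpel2, and the mean of probe sets gave -0.0117 for Timm10b. The replicate block gave 0.0161 for Tomm22. Without 1 array the ranges were -0.0337 to 0.38 for Timm17b, -0.00944 to 0.0776 for Timm22, -0.0219 to 0.0161 for Tomm22, -0.00788 to 0.0458 for Timm10b, -0.30 to 0.13 for Timm13, -0.10 to 0.0162 for Timm8a2, -0.14 to 0.032 for Grpel1 and -0.0235 to 0.0398 for Grpel2. Among pathway genes, Hspa9 passed in the fit to genes with 5 distinct values (limma adjusted p = 0.0258, 0.0258 to 0.491 over all alternatives) and Xpnpep3 without WT replicate 1 (limma adjusted p = 0.0223, 0.0223 to 0.963, the highest without WT replicate 2, where its difference was -0.00957). The replicate numbers are not stated to pair arrays. Deviations from the group means correlated over genes by 0.188 for the arrays numbered 1 and by -0.201 for those numbered 2. Polg mutant replicate 2 with WT replicate 1, which do not share a number, gave 0.201. With 2 WT arrays the WT deviations mirror each other, so these values are not separate checks of pairing. The block fit left 1 residual degree of freedom. Polg mutant replicate 3 shares its number with no other array, so the block differences equal those without that array. The block gave 0 adjusted calls, as did the fit without it, so the calls cannot decide on pairing. The mean-variance trend, median centring and variance moderation left the other counts within 1.5 times.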
